A study of Mus musculus with 23 samples.

Results

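The comparison described here asks which genes changed differently in wild-type and Rhbdf2 mutant mouse ears during the 2 h after an ear punch. Its values come from 12 of the 23 arrays of the study, 3 in each of 4 groups, chosen by sample title. The other arrays enter this comparison only through the estimate of the spread. For each gene the change in the mutant (2 h minus 0 h) had the change in wild type (2 h minus 0 h) subtracted from it, and the result is called the interaction. All 12 samples were ear pinna tissue of female mice at 4 weeks of age. The wild-type groups were C57BL/6J mice of genotype Rhbdf2+/+, and the mutant groups were B6.Cg-Rhbdf2cub/J mice of genotype Rhbdf2cub/cub, called cub here. The 0 h groups were unwounded. For the 2 h groups a 2-mm hole had been punched through each ear, and the ring of 1 mm around it was taken with a 3-mm biopsy punch. No animal gave tissue at both times, and the size of the piece taken at 0 h was not given in the sources used here. Wounding and the way the piece was cut therefore cannot be told apart within a genotype.

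The product of Rhbdf2 is iRhom2, a rhomboid-like protein without protease activity that escorts the metalloprotease ADAM17 to the cell surface. ADAM17 sheds TNF and several ligands of the epidermal growth factor receptor (EGFR), and iRhom2 with a shortened cytoplasmic part, as in cub, raises the release of such ligands. Homozygous cub mice lack a normal hair coat. Skin wounding brings on immediate early genes within minutes, then cytokines, and later the migration of keratinocytes and the work of fibroblasts. NRF2, the transcription factor encoded by Nfe2l2, drives genes of antioxidant defence and is named in the title of the study.

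Values are log2 intensities normalised by robust multi-array averaging (RMA), so that a difference of 1 is a doubling. Array medians lay between 6.37 and 6.46, and the lowest correlation between arrays of a group was 0.9965. With 3 arrays per group, precision is limited by their number. The tissue label was checked by levels in the 12 arrays. Krt5 and Krt14 of basal keratinocytes lay at 12.90 to 13.01 and at 12.63 to 12.71, Dcn of fibroblasts at 12.92 to 13.06 and Acta1 of skeletal muscle at 12.01 to 12.43, while Alb of liver lay at 4.68 to 5.20. Over the mean levels of the 33 gene lists, 5 of the 12 arrays lay more than 0.3 from the nearest array of their group in at least 1 list, a limit set after the values were seen. Cub 0 h replicate 2 was high in adipocyte genes (9.37 against 8.49 and 8.85), in macrophage markers (8.93 against 8.45 and 8.60) and in the 3 erythroid genes tested (8.11 against 7.04 and 7.10). Cub 0 h replicate 1 was low in adipocyte genes. Cub 2 h replicate 2 was high in adipocyte genes (8.69 against 8.17 and 8.14) and low in cell division genes (7.66, with a gap of 0.37). Wild-type 2 h replicate 3 was high in interferon-stimulated genes (7.19 against 6.75 and 6.63) and low in macrophage markers (8.12 against 8.52 and 8.70). Wild-type 2 h replicate 1 was low in skeletal muscle genes (9.83, with a gap of 0.31). In bulk tissue, fewer cells of a type and less RNA per cell cannot be told apart.

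The sequences shown next belong to 2 sets of genes among those whose change at 2 h differed between the genotypes. The first set is Tyr, Tyrp1 and Dct, the 3 pigment enzymes whose change was higher in cub. Each had the letters TCATGTGCT, the core of the M-box element known from pigment genes, within 250 bases before to 50 bases after the start of a RefSeq transcript. The windows are from RefSeq on GRCm38.p6, are written 5′ to 3′ on the strand of the gene, and carry the letters in capitals.
Tyr, chr7:87493515-87493544, minus strand: aaaaagttagTCATGTGCTttgcagaagat
Tyrp1, chr4:80834156-80834185, plus strand: ggggagggagTCATGTGCTgcctagtagtt
Dct, chr14:118052378-118052407, minus strand: gcacttagggTCATGTGCTaacaaagagga
The first capital lay 22 bases before the start in Tyr, 47 in Tyrp1 and 151 in Dct. On either strand, TCATGTGCT was present in 134 of 32851 such windows (0.408%), which is 112 of 27025 genes (0.414%). The shorter CATGTG, which is contained in it, was present in 14.2% of the windows and in 15.9% of the genes. Of the 12 melanocyte genes listed, 8 had a window. The shorter CATGTG was present in 6 of these 8, among them Mc1r, Oca2 and Slc24a5. The longer TCATGTGCT was present in 3 of the 8, namely Tyr, Tyrp1 and Dct. The letters were chosen with the results known, and a match is a description of the sequence and not of binding.

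The second set is the pair of mature microRNAs of Mir377, a microRNA gene on chromosome 12 whose array row was higher in cub at 2 h. The capitals mark the seed, bases 2 to 8, which pairs with target transcripts. The 2 arms have different seeds, and the sources used here do not say which part of the hairpin the array row measures.
miR-377-5p, chr12:109740515-109740536, plus strand: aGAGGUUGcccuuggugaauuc
miR-377-3p, chr12:109740553-109740574, plus strand: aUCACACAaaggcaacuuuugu

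At 2 h, the pigment enzymes Tyrp1, Dct and Tyr and the matrix gene Cthrc1 had risen in cub and did not pass in wild type, Arc had risen further in cub than in wild type, and Pdk4 and Ucp3 had risen in wild type and not in cub. In limma's moderated test with Benjamini-Hochberg adjustment, 26 of 19938 genes (0.13%) passed an adjusted p of 0.05. The interaction was above 0 in 21 of them (0.105%) and below 0 in 5 (0.0251%). Their sizes ran from 0.33 to 2.43 on the log2 scale, and 7 of the 26 were at least 1 in size. Over all genes tested, 2029 (10.2%) had an unadjusted p under 0.05, of which 1307 (6.56%) were higher and 722 (3.62%) lower. The wounding change passed for 1590 genes in wild type (7.97%, with 3.98% higher and 4% lower at 2 h) and for 2381 in cub (11.9%, with 7.66% higher and 4.28% lower). The genotypes differed in 1047 genes at 0 h (5.25%, with 3.33% higher and 1.93% lower in cub) and in 880 at 2 h (4.41%, with 3.84% higher and 0.577% lower in cub). These component comparisons share arrays with the interaction and with each other, so they describe its shape and do not test it again. The 26 genes lay on 13 chromosomes, and 22 were protein coding.

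**Figure D1:**
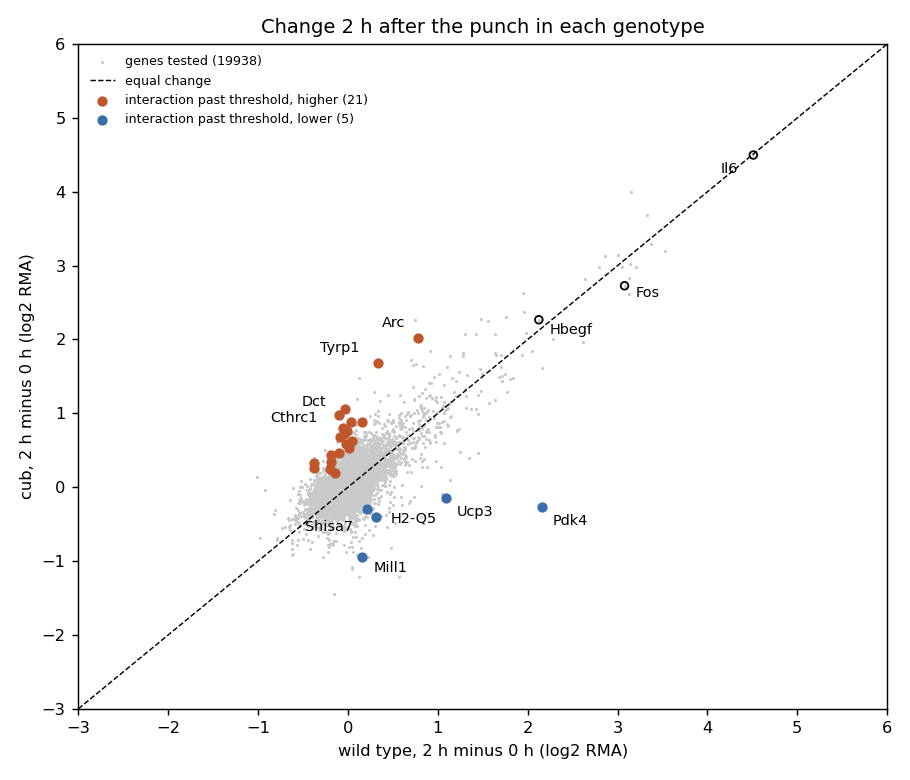
Change 2 h after the punch in wild type (horizontal axis) and cub (vertical axis), in log2 RMA units, for 19938 genes; the dashed line marks equal change, orange points the 21 genes with a higher interaction past the threshold and blue points the 5 with a lower one. Il6, Fos and Hbegf, drawn as open circles, lie near the line, while Pdk4 lies 2.43 below it and Tyrp1 1.35 above it.

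The count of 26 rested on single arrays. It fell to 1 gene without cub 0 h replicate 2 and also to 1 without wild-type 0 h replicate 2. Leaving out cub 2 h replicate 1 gave 2 genes, as did leaving out wild-type 2 h replicate 2. It was 4 on leaving out replicate 3 of wild type at 2 h or at 0 h, 5 without wild-type 2 h replicate 1 and 6 without cub 2 h replicate 3. It was 10 without cub 0 h replicate 3, 14 without cub 0 h replicate 1, 18 without wild-type 0 h replicate 1 and 45 without cub 2 h replicate 2. Pdk4 was past the threshold without any of the 12 arrays in turn. Cthrc1 was past it in 9 of these 12 fits, Dct in 7, Shisa7 in 6, and each of Arc, Mir377, Mill1 and H2-Q5 in 4. The other 18 genes were past it in 3 or fewer, and Krtap15 and Ccdc84 in 0. Where 1 of the 26 genes lost its call without an array, its adjusted p ran from 0.051 to 0.174. The sign was the same in all 542 values of the 26 genes over the 21 alternatives. The genes were chosen by the interaction in these arrays, and the alternatives reuse most of the arrays. A kept sign is therefore no further support for the calls.

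The 5 genes with a lower interaction began higher in cub, and 0 of the 5 passed the test between genotypes at 2 h. The genotypes overlapped at 2 h in Pdk4, Ucp3, Mill1 and H2-Q5, and in Shisa7 their order had turned. Pdk4, which inhibits pyruvate dehydrogenase and so spares glucose, had the largest interaction in size of all genes tested. Its level was 7.29, 7.37 and 7.41 in the wild-type arrays at 0 h, and 9.83, 10.67 and 9.66 in cub. In the 2 h arrays it was at 9.50, 9.25 and 9.79 in wild type, and 9.60, 10.25 and 9.50 in cub. The genotypes did not overlap at 0 h and overlapped at 2 h, since wild type rose to the level that cub had before the wound. The change was 2.16 ± 0.22 (SE) in wild type (adjusted p = 9.69e-07) and -0.27 in cub (adjusted p = 0.529). The interaction of Pdk4 was -2.43 ± 0.32 (SE, n = 3 per group, adjusted p = 0.00359). It ran from -2.66 to -2.12 over the 21 alternatives, of which the fit without moderation ended the call (adjusted p = 0.0565).

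Ucp3, a mitochondrial carrier of muscle and fat, followed the same order of levels. It lay at 5.73, 5.95 and 5.82 in wild type at 0 h against 7.24, 7.47 and 6.84 in cub. At 2 h the values were 6.78, 6.71 and 7.29 in wild type and 6.88, 7.18 and 7.07 in cub, and the genotypes overlapped. Its interaction was -1.23 ± 0.24 (adjusted p = 0.039), from a change of 1.09 in wild type (adjusted p = 0.000156) and of -0.14 in cub (adjusted p = 0.694). Of 23 lipid fuel and glucocorticoid-responsive genes tested, Pdk4 and Ucp3 were the 2 that passed, against 0.0251% of all genes in this direction. Of the 23, 17 were below 0, against 9405 of all 19938 genes, and the median was -0.11. Below 0, 4 of the 23 had an unadjusted p under 0.05, against 3.62% of all genes, and 1 had it above 0. Cpt1a and Angptl4, which serve fatty acid use and are named after their values were seen, were at -0.09 (adjusted p = 0.836) and -0.14 (adjusted p = 0.881). Fabp3, a fatty acid carrier of muscle, did not pass, at -1.01 ± 0.22 (adjusted p = 0.075).

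Muscle and adipocyte genes had interactions below 0 beside these genes. Of 37 skeletal muscle genes tested, 36 were below 0, with a median of -0.25, and 0 of 37 passed. An unadjusted p under 0.05 was found for 10 of the 37 in this direction, against 3.62% of all genes. Of 17 adipocyte genes, 16 were below 0, with a median of -0.50, and 0 of 17 passed; 9 of the 17 had an unadjusted p under 0.05 against 3.62% of all genes in this direction. The mean level of the 17 adipocyte genes was 8.53, 8.59 and 8.47 in wild type at 0 h and 8.49, 9.37 and 8.85 in cub. Its 2 h values were 8.50, 8.72 and 8.62 in wild type and 8.17, 8.69 and 8.14 in cub. The adipocyte median was -0.30 without cub 0 h replicate 2, -0.74 without cub 0 h replicate 1 and -0.63 without cub 2 h replicate 2. The muscle median was -0.16 without wild-type 0 h replicate 3 and -0.38 without wild-type 2 h replicate 1, and it was -0.11 with array weights. The muscle list mean, 9.91 to 10.22 in wild type at 0 h, lay at 10.23 to 10.38 in cub at 0 h, at 9.83 to 10.19 in wild type at 2 h and at 9.88 to 10.01 in cub at 2 h. What these cell types add to the values of Pdk4 and Ucp3 was not tested.

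Mill1 and H2-Q5 belong to the class I family of the major histocompatibility complex, and both fell in cub. Mill1, a class I-like molecule, was at 8.90, 9.36 and 8.93 in cub at 0 h and at 8.11, 8.21 and 8.02 in cub at 2 h, with no overlap. In wild type it was at 8.14, 7.72 and 7.66 at 0 h and at 7.96, 7.88 and 8.16 at 2 h, which overlapped. The interaction of Mill1 was -1.11 ± 0.19 (adjusted p = 0.0268). The interaction of H2-Q5, annotated as a transcribed pseudogene, was -0.73 ± 0.13 (adjusted p = 0.0268). H2-Q5 fell in cub by 0.41 (adjusted p = 0.00388) and rose in wild type by 0.32 (adjusted p = 0.0324). Its levels were 8.31 to 8.43 in cub at 0 h and 7.87 to 8.06 at 2 h, against 7.37 to 7.47 and 7.53 to 7.96 in wild type. H2-Q5 is uncertain, because class I genes are near-identical and probes can hybridise to several of them.

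Shisa7, an auxiliary protein of neurotransmitter receptors, had the smallest difference of the 5. It was at 6.82, 6.84 and 6.77 in cub at 0 h against 6.48, 6.46 and 6.57 in wild type. At 2 h the order of the genotypes had turned, at 6.52, 6.54 and 6.48 in cub against 6.58, 6.81 and 6.74 in wild type, without overlap, though this 2 h difference did not pass (adjusted p = 0.0669). Its interaction was -0.50 ± 0.08 (adjusted p = 0.0268). The next genes in this direction by unadjusted p did not pass. Dach1 was at -0.55 (adjusted p = 0.0834), Tap2, a peptide transporter of class I loading, at -0.42 (adjusted p = 0.0834), Bahcc1 at -0.37 (adjusted p = 0.0716) and Hdac5, a histone deacetylase, at -0.34 (adjusted p = 0.0723).

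Arrays taken 15 min and 24 h after the punch do not enter the value of the interaction, but they share in the estimate of its spread. The genotypes differed in 688 of all genes at 15 min (3.45%) and in 1133 at 24 h (5.68%, with 3.44% lower in cub). At 15 min, with 3 wild-type and 2 cub arrays, 5 of these 5 genes were higher in cub, against 313 of all 19938 genes (1.57%). Pdk4 was at 8.15, 7.59 and 7.67 in wild type and at 10.03 and 9.81 in cub, a difference of 2.12 ± 0.25 (adjusted p = 0.000126). The 15 min difference was 1.01 for Mill1 (adjusted p = 0.00191), 0.88 for Ucp3 (adjusted p = 0.0156), 0.85 for H2-Q5 (adjusted p = 0.000126) and 0.34 for Shisa7 (adjusted p = 0.0119). At 24 h, 3 of the 5 were higher in cub, against 447 of all genes (2.24%). These were Pdk4 by 0.83 (adjusted p = 0.0321), Ucp3 by 0.60 (adjusted p = 0.0379) and H2-Q5 by 0.46 (adjusted p = 0.00426). Mill1 was at -0.29 at 24 h (adjusted p = 0.261), at 6.65, 7.04 and 6.91 in wild type and 6.70, 6.45 and 6.58 in cub. In both genotypes the Mill1 arrays at 24 h lay below those at 2 h.

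**Figure D2:**
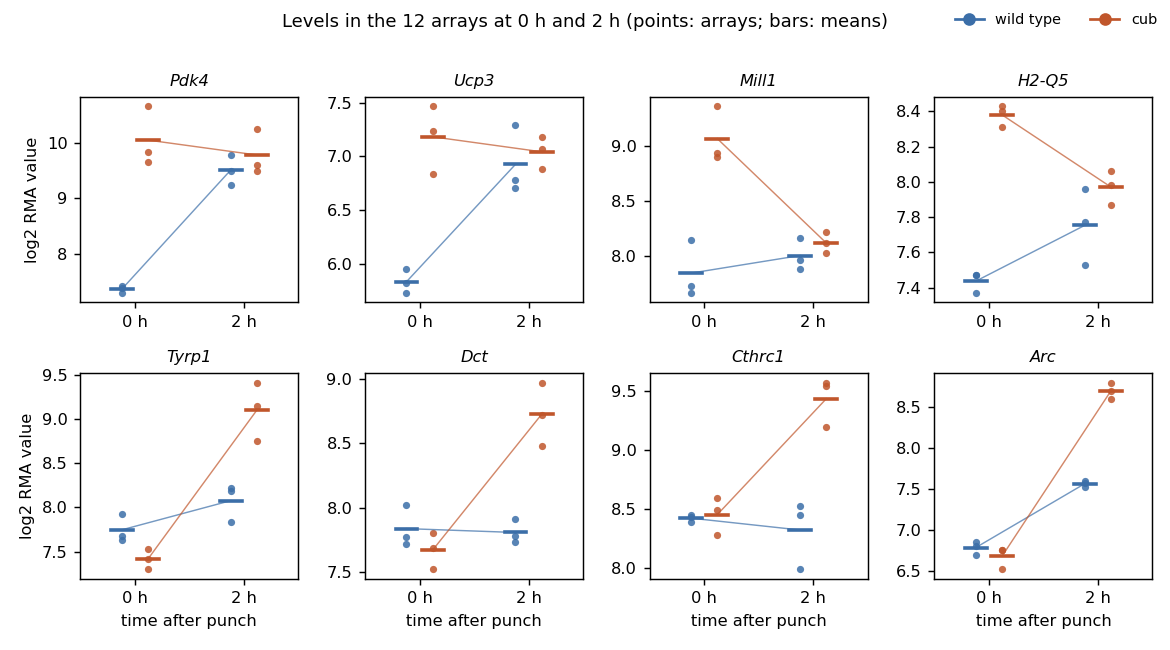
Log2 RMA levels of 8 genes at 0 h and 2 h in wild type (blue) and cub (orange); each point is an array, bars are means of 3 arrays and lines join the means. The upper row shows genes that began higher in cub and overlapped wild type at 2 h, and the lower row genes that separated at 2 h, such as Arc at 8.60 to 8.80 in cub against 7.52 to 7.60 in wild type.

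Of the 21 genes with a higher interaction, 14 did not pass the test between genotypes at 0 h and were higher in cub at 2 h. The change at 2 h passed in cub for all 21 and in wild type for 3, with a rise of Arc and falls of Mir100hg and B230307C23Rik. The 3 pigment enzymes were in this set of 14. Tyrp1, which oxidises intermediates of melanin synthesis, was at 7.68, 7.93 and 7.63 in wild type and 7.42, 7.30 and 7.53 in cub at 0 h. By 2 h it was at 8.22, 8.18 and 7.83 in wild type and at 9.41, 8.75 and 9.14 in cub, without overlap. The cub arrays had moved from below to above the wild-type arrays. The interaction of Tyrp1 was 1.35 ± 0.27 (adjusted p = 0.0455), with a change of 1.68 in cub (adjusted p = 2.53e-06) and of 0.33 in wild type (adjusted p = 0.37). Its adjusted p ran from 0.00874 to 0.174 over the alternatives, of which 5 of 21 had the call. At 15 min Tyrp1 was at 8.09, 8.50 and 8.56 in wild type and at 8.22 and 8.10 in cub (difference -0.22, adjusted p = 0.543).

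Dct, which converts dopachrome in the same pathway, was at 7.77, 8.02 and 7.72 in wild type and 7.69, 7.52 and 7.80 in cub at 0 h. At 2 h it was at 7.91, 7.78 and 7.73 in wild type and at 8.97, 8.48 and 8.72 in cub. All 3 cub arrays at 2 h were above the other 9. The interaction of Dct was 1.08 ± 0.17 (adjusted p = 0.0226). Tyr, the rate-limiting enzyme of melanin synthesis, was low, at 4.85, 4.94 and 4.96 in wild type and 4.61, 4.66 and 4.81 in cub at 0 h. In the 2 h arrays it was at 4.92, 4.76 and 4.81 in wild type and at 5.61, 5.18 and 5.33 in cub. Its interaction was 0.77 ± 0.14 (adjusted p = 0.0374), and the call was kept in 3 of the 12 fits without 1 array.

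Of 12 melanocyte genes tested, 3 passed with a higher interaction, against 0.105% of all genes. Of the 12, 11 were above 0, against 10496 of all 19938 genes. The median interaction was 0.50 against 0.01 over all genes. Another 3 had an unadjusted p under 0.05 and did not pass; they, Mitf and Kit are named after their values were seen. Pmel, the fibril protein of melanosomes, was at 1.10 ± 0.23 (adjusted p = 0.0651). Slc24a5, an ion exchanger of melanosomes, was at 0.75 (adjusted p = 0.168) and Mlana, a melanosome membrane protein, at 0.72 (adjusted p = 0.288). Mitf, the transcription factor of the lineage, was at -0.10 (adjusted p = 0.792), and Kit, its growth factor receptor, at 0.05 (adjusted p = 0.944). The mean level of the 12 genes was 6.44, 6.53 and 6.47 in wild type at 0 h and 6.40, 6.33 and 6.42 in cub. Its 2 h values were 6.66, 6.60 and 6.44 in wild type and 7.17, 6.81 and 6.98 in cub. Without cub 2 h replicate 1, the array with the highest mean, the median interaction was 0.38. Hair follicles hold melanocytes, but where melanocytes lay in these ears was not measured. Of 32 hair follicle genes, 17 were above 0 with a median of 0.02, and 0 passed. An unadjusted p under 0.05 was found for 4 of the 32 in this direction, against 6.56% of all genes. Krtap15, a hair shaft gene that passed, is not in this list. The mean hair follicle level was 6.62 to 6.66 in cub at 2 h, 6.45 to 6.57 in wild type at 2 h, 6.42 to 6.51 in wild type at 0 h and 6.37 to 6.78 in cub at 0 h. Its part in the pigment values was not tested.

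At 15 min Dct was at 8.01, 8.23 and 8.27 in wild type and at 8.15 and 8.16 in cub (difference -0.015, adjusted p = 0.956). Tyr was then at 4.94, 5.03 and 5.28 in wild type and at 4.94 and 5.02 in cub (difference -0.10, adjusted p = 0.598). The wild-type mean was higher at 15 min than at 2 h for Tyrp1 (8.38 against 8.08), Dct (8.17 against 7.81) and Tyr (5.08 against 4.83). At 24 h none of the 3 pigment enzymes passed the test between genotypes. The difference was 0.00 for Tyrp1 (adjusted p = 1), 0.08 for Dct (adjusted p = 0.819) and 0.08 for Tyr (adjusted p = 0.786).

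Arc, an immediate early gene known from neurons and present in skin dendritic cells, rose in both genotypes and further in cub. At 0 h it was at 6.85, 6.81 and 6.70 in wild type and at 6.76, 6.52 and 6.76 in cub. By 2 h it was at 7.58, 7.52 and 7.60 in wild type and at 8.80, 8.70 and 8.60 in cub, with a gap of 1 log2 unit between the nearest arrays. The change of Arc was 0.78 in wild type (adjusted p = 0.00194) and 2.02 in cub (adjusted p = 6.84e-09), an interaction of 1.24 ± 0.21 (adjusted p = 0.0268). At 24 h the wild-type arrays were at 7.54, 7.85 and 8.48 and the cub arrays at 9.62, 9.38 and 9.73, a difference of 1.62 (adjusted p = 1.63e-06). At 15 min the difference was 0.11 (adjusted p = 0.715).

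Among 31 immediate early genes, Arc was the 1 that passed, against 0.13% of all genes. Of the list, 25 had an interaction below 0, and the median was -0.17. An unadjusted p under 0.05 was found for 5 of the 31 in this direction, against 3.62% of all genes. The wounding change passed upward for 29 of the 31 in wild type (3.98% of all genes) and for 28 in cub (7.66% of all genes). Fos, a component of AP-1, rose by 3.08 in wild type and 2.73 in cub, an interaction of -0.35 with a 95% confidence interval from -1.11 to 0.41. Egr1, a zinc-finger factor of the growth factor response, rose by 1.81 and 1.47, an interaction of -0.34 with an interval from -0.76 to 0.08.

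Cthrc1, a collagen triple helix repeat protein of wound fibroblasts, was at 8.39, 8.45 and 8.43 in wild type and at 8.59, 8.28 and 8.49 in cub at 0 h. At 2 h it was at 8.45, 8.53 and 7.99 in wild type and at 9.57, 9.19 and 9.54 in cub. Only the cub arrays at 2 h stood above 9 among the 12. The interaction of Cthrc1 was 1.08 ± 0.17 (adjusted p = 0.0214). The call of Cthrc1 was lost without cub 2 h replicate 1 (adjusted p = 0.077), without wild-type 0 h replicate 2 (adjusted p = 0.0788) and without cub 0 h replicate 2 (adjusted p = 0.0515).

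C1qtnf3 and C1qtnf6 encode secreted proteins related to C1q and TNF. C1qtnf3 was at 7.61, 7.37 and 7.40 in wild type and 7.74, 7.51 and 7.55 in cub at 0 h, and at 7.47, 7.49 and 7.24 in wild type and 8.55, 8.22 and 8.44 in cub at 2 h. The interaction of C1qtnf3 was 0.86 ± 0.15 (adjusted p = 0.0268). C1qtnf6 was at 6.91 to 7.09 in the 6 arrays at 0 h, at 6.78 to 7.05 in wild type at 2 h and at 7.93, 7.46 and 7.85 in cub at 2 h. The interaction of C1qtnf6 was 0.77 ± 0.15 (adjusted p = 0.0383). For both genes the cub arrays at 2 h were above the other 9. Igfbp2, which binds insulin-like growth factors, had an interaction of 0.56 ± 0.11 (adjusted p = 0.039), at 8.64 to 8.82 in cub at 2 h against 8.21 to 8.39 in wild type at 2 h.

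Of 34 fibroblast and matrix genes tested, 33 had an interaction above 0, and the median was 0.25. Cthrc1 was the 1 that passed, against 0.13% of all genes. An unadjusted p under 0.05 was found for 18 of the 34, against 6.56% of all genes in this direction. The wounding change passed upward for 18 in cub (7.66% of all genes) and 0 in wild type (3.98% of all genes). Ccn3, a matricellular growth regulator, was at 0.72 (adjusted p = 0.0976), Eln, elastin, at 0.62 (adjusted p = 0.123) and Fbn2, a microfibril protein, at 0.58 (adjusted p = 0.145); these 3 were named after their values were seen. The mean level of the 34 genes was 9.99, 9.95 and 9.93 in wild type and 10.11, 10.19 and 10.15 in cub at 0 h. In the 2 h arrays it was at 9.83 to 10.03 in wild type and 10.51, 10.38 and 10.46 in cub. Without wild-type 2 h replicate 3, the array with the lowest mean, the median was 0.18.

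Mir377 was near the floor of the array except in cub at 2 h. It was at 3.95 to 4.09 in the other 9 arrays and at 5.28, 4.75 and 4.60 in cub at 2 h, an interaction of 0.84 ± 0.15 (adjusted p = 0.029). Mir100hg, the long non-coding host of miR-100, let-7a-2 and miR-125b-1, moved in opposite directions. It fell in wild type by 0.38 (adjusted p = 0.00869) and rose in cub by 0.33 (adjusted p = 0.0167). Its arrays were at 7.45, 7.50 and 7.58 in wild type and 7.28, 7.38 and 7.33 in cub at 0 h, and at 7.05, 7.12 and 7.21 in wild type and 7.63, 7.83 and 7.52 in cub at 2 h. The interaction of Mir100hg was 0.71 ± 0.13 (adjusted p = 0.0268). It was still higher in cub at 24 h, by 0.32 (adjusted p = 0.0345).

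The remaining members of the 14 were Cldn10, Gm11559, Rab31 and Krtap15. Cldn10, a claudin of tight junctions, was at 0.63 ± 0.12 (adjusted p = 0.039), but the other row of this gene, fitted with every row, was at 0.50 and did not pass (adjusted p = 0.135). Rab31, a small GTPase of vesicle transport, was at 0.53 ± 0.10 (adjusted p = 0.041), with 9.60 to 9.81 in cub at 2 h and 9.08 to 9.50 in the other 9 arrays. Gm11559 was low, at 3.80 to 4.08 in the other 9 arrays and at 4.51, 4.42 and 4.69 in cub at 2 h (interaction 0.61, adjusted p = 0.0374). Krtap15, a keratin-associated protein of the hair shaft, was also low, at 4.76, 4.78 and 4.69 in cub at 2 h and at 4.16 to 4.29 in the other 9 arrays (interaction 0.52, adjusted p = 0.0383). Of these 14 genes, 2 were higher in cub at 24 h, Arc and Mir100hg, against 2.24% of all genes. At 15 min 0 of the 14 were called, against 3.45% of all genes.

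**Figure D3:**
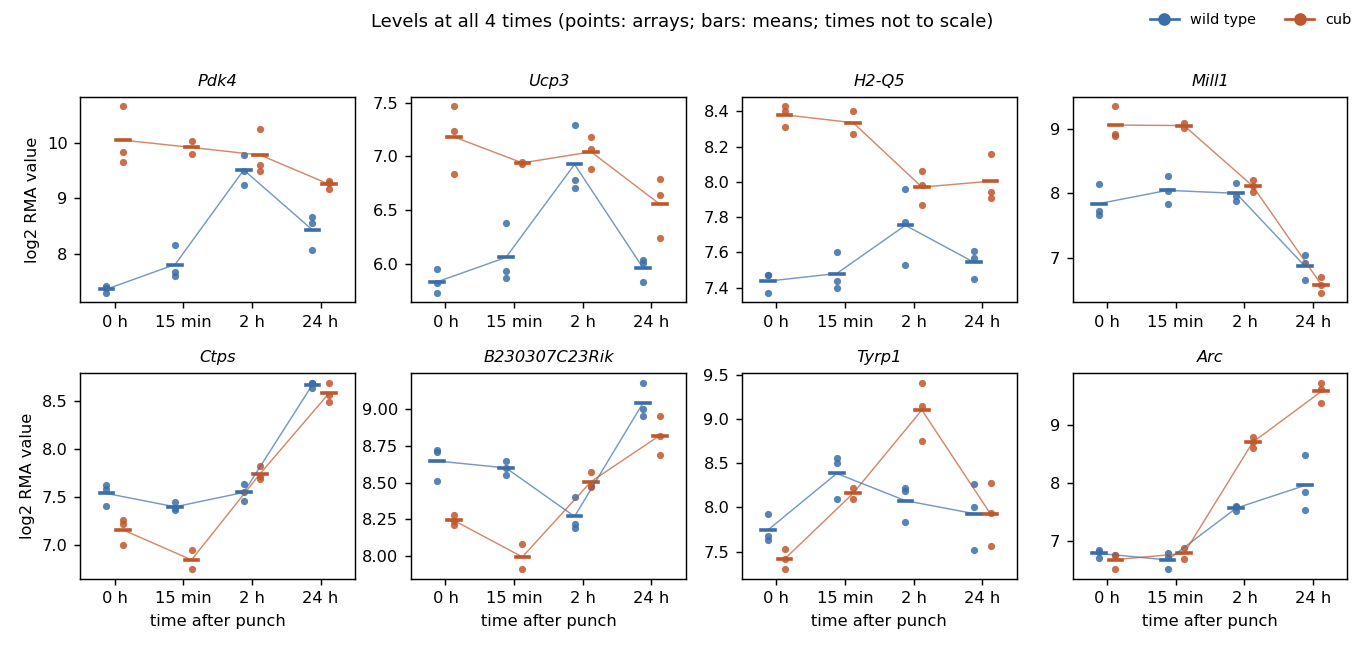
Log2 RMA levels of 8 genes at 0 h, 15 min, 2 h and 24 h in wild type (blue) and cub (orange); points are arrays (3 per group, 2 for cub at 15 min), bars are means and the time axis is not to scale. Pdk4 was separated at 15 min, at 7.59 to 8.15 in wild type against 9.81 and 10.03 in cub, and Arc at 24 h, at 7.54 to 8.48 against 9.38 to 9.73.

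The other 7 genes with a higher interaction began lower in cub and reached or passed the wild-type level at 2 h. Cry1, a repressor of the circadian clock, was at 7.64, 7.54 and 7.63 in wild type and at 7.32, 6.98 and 6.96 in cub at 0 h. Its 2 h values were 7.82, 7.68 and 7.78 in wild type and 7.87 to 8.02 in cub. The genotypes did not overlap at either time, and their order had turned, although the 2 h difference of 0.20 did not pass (adjusted p = 0.274). The interaction of Cry1 was 0.72 ± 0.13 (adjusted p = 0.0374). Among 17 circadian clock genes Cry1 was the 1 that passed, against 0.13% of all genes, and the median was -0.06. Per1 and Bhlhe40, also clock repressors, were at -0.55 and -0.45 (adjusted p = 0.145 each), and both were named after their values were seen.

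Galnt6, which starts mucin-type O-glycosylation, was at 6.94, 7.27 and 7.16 in wild type and 6.73, 6.75 and 6.50 in cub at 0 h, and at 7.25, 6.97 and 7.13 in wild type and 7.57, 7.34 and 7.34 in cub at 2 h. The interaction of Galnt6 was 0.76 ± 0.15 (adjusted p = 0.0399). Ctps, the CTP synthase of nucleotide synthesis, was at 7.40, 7.58 and 7.62 in wild type and 7.21, 7.26 and 6.99 in cub at 0 h, and at 7.55, 7.45 and 7.63 in wild type and 7.72, 7.68 and 7.82 in cub at 2 h. The interaction of Ctps was 0.58 ± 0.11 (adjusted p = 0.0383). For both genes the order of the genotypes was turned between the times without overlap at either, but the 2 h difference did not pass, at 0.30 for Galnt6 (adjusted p = 0.118) and 0.20 for Ctps (adjusted p = 0.175).

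B230307C23Rik fell in wild type by 0.38 (adjusted p = 0.0036) and rose in cub by 0.26 (adjusted p = 0.03), an interaction of 0.64 ± 0.11 (adjusted p = 0.0268). Snord96a, a small nucleolar RNA, was at 6.26 to 6.35 in wild type and 6.01 to 6.07 in cub at 0 h, and at 6.21 to 6.51 in wild type and 6.55 to 6.75 in cub at 2 h. The interaction of Snord96a was 0.58 ± 0.11 (adjusted p = 0.041). It was the 1 gene of the 7 that passed the test between genotypes at 2 h (difference 0.30, adjusted p = 0.0352). Ccdc84 was at 0.44 ± 0.09 (adjusted p = 0.041). Mtch2, a protein of the outer mitochondrial membrane, had the smallest interaction among the 26 genes, 0.33 ± 0.07 (adjusted p = 0.041), and its other row was at 0.21 (adjusted p = 0.414). Ctps, Rab31, Krtap15, Ccdc84 and Mtch2 fell outside the naming rule and are given because they complete the 26.

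At 15 min, 4 of these 7 genes were lower in cub, against 375 of all genes (1.88%). The difference was -0.60 for B230307C23Rik (adjusted p = 0.00132), -0.55 for Ctps (adjusted p = 0.00218), -0.26 for Ccdc84 (adjusted p = 0.0386) and -0.22 for Mtch2 (adjusted p = 0.0245). Cry1 did not pass at 15 min, at -0.34 (adjusted p = 0.0725). At 24 h, 0 of the 7 passed in either direction, against 5.68% of all genes.

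Rhbdf2 itself was measured in every sample. At 0 h it was at 8.76, 8.69 and 8.64 in wild type and at 9.14, 9.07 and 9.11 in cub. By 2 h it was at 9.03, 8.95 and 9.02 in wild type and at 9.14, 8.93 and 8.93 in cub. The genotypes did not overlap at 0 h (difference 0.41, adjusted p = 0.00883) and overlapped at 2 h. The interaction of Rhbdf2 was -0.41 ± 0.12 and did not pass (adjusted p = 0.213). Where its probes lie relative to the cub deletion is not given in the sources used here, so the row does not check the genotype labels.

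The EGFR arm showed no gene past the threshold. Of 15 ligands, receptors and sheddases tested, 4 had an interaction above 0, and the median was -0.06. Below 0, 2 of the 15 had an unadjusted p under 0.05, against 3.62% of all genes, and 0 had it above 0. The receptor gene Erbb2 was at -0.28, with a 95% confidence interval from -0.48 to -0.07 (adjusted p = 0.308). Hbegf, the heparin-binding EGFR ligand, rose by 2.12 in wild type (adjusted p = 5.02e-10) and by 2.27 in cub (adjusted p = 1.87e-10). Its interaction was 0.14, with a 95% confidence interval from -0.25 to 0.53. Epgn, another ligand, was higher in cub at 0 h by 1.00 (adjusted p = 0.00129) and rose by 1.47 in wild type and 1.60 in cub, an interaction of 0.13 with an interval from -0.35 to 0.61. The interaction of the ligand gene Btc was -0.22, with an interval from -0.77 to 0.33. The interval ran from -0.14 to 0.20 for Adam17 and from -0.25 to 0.13 for Egfr. Of 19 feedback targets of MAP kinase signalling, 0 passed, 12 were below 0 and the median was -0.12. An unadjusted p under 0.05 was found for 5 of the 19 in this direction, against 3.62% of all genes. Dusp6, a phosphatase of ERK, rose by 1.21 in wild type and 0.76 in cub, an interaction of -0.45 (adjusted p = 0.406).

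No gene of the NRF2 list passed either. Of 32 NRF2 targets tested, 25 had an interaction above 0, the median was 0.09, and 5 had an unadjusted p under 0.05 in this direction, against 6.56% of all genes. Slc7a11, the cystine transporter that feeds glutathione synthesis, was at 5.96, 6.35 and 6.03 in wild type and at 5.57, 5.22 and 5.38 in cub at 0 h. At 2 h it was at 6.37, 6.38 and 6.49 in wild type and at 6.37, 6.36 and 6.40 in cub. The genotypes were apart at 0 h and overlapped at 2 h. The interaction of Slc7a11 was 0.69 ± 0.21 with a 95% confidence interval from 0.25 to 1.13 (adjusted p = 0.221).

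Gclc and Gclm, the catalytic and modifier subunits of the enzyme that limits glutathione synthesis, had the same order. Gclc was at 9.59, 9.66 and 9.58 in wild type and at 9.20, 9.21 and 9.17 in cub at 0 h, and at 9.89, 9.69 and 9.82 in wild type and 9.71, 9.77 and 9.64 in cub at 2 h. Its interaction was 0.32 (adjusted p = 0.301). Gclm was at 9.54, 9.53 and 9.49 in wild type and at 9.24, 9.28 and 9.20 in cub at 0 h, and at 9.51, 9.39 and 9.51 in wild type and 9.53, 9.44 and 9.56 in cub at 2 h. Its interaction was 0.32 ± 0.08 (adjusted p = 0.145). In each of these 3 genes the change passed in cub and not in wild type, but the difference between the changes did not. Before the wound all 3 were lower in cub, by 0.72 for Slc7a11 (adjusted p = 0.00669), 0.42 for Gclc (adjusted p = 0.00431) and 0.28 for Gclm (adjusted p = 0.00748).

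The other NRF2 genes reported whatever their values had intervals of the interaction that included 0. Hmox1, which degrades haem, rose by 0.80 in wild type and 1.10 in cub, an interaction of 0.30 with an interval from -0.13 to 0.74 (adjusted p = 0.671). Nfe2l2 rose by 0.43 and 0.48, with an interval of the interaction from -0.13 to 0.22. The interval ran from -0.23 to 0.44 for Nqo1, a quinone reductase, from -0.10 to 0.31 for Srxn1, which repairs peroxiredoxins, and from -0.46 to 0.09 for Txnrd1, the thioredoxin reductase.

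**Figure D4:**
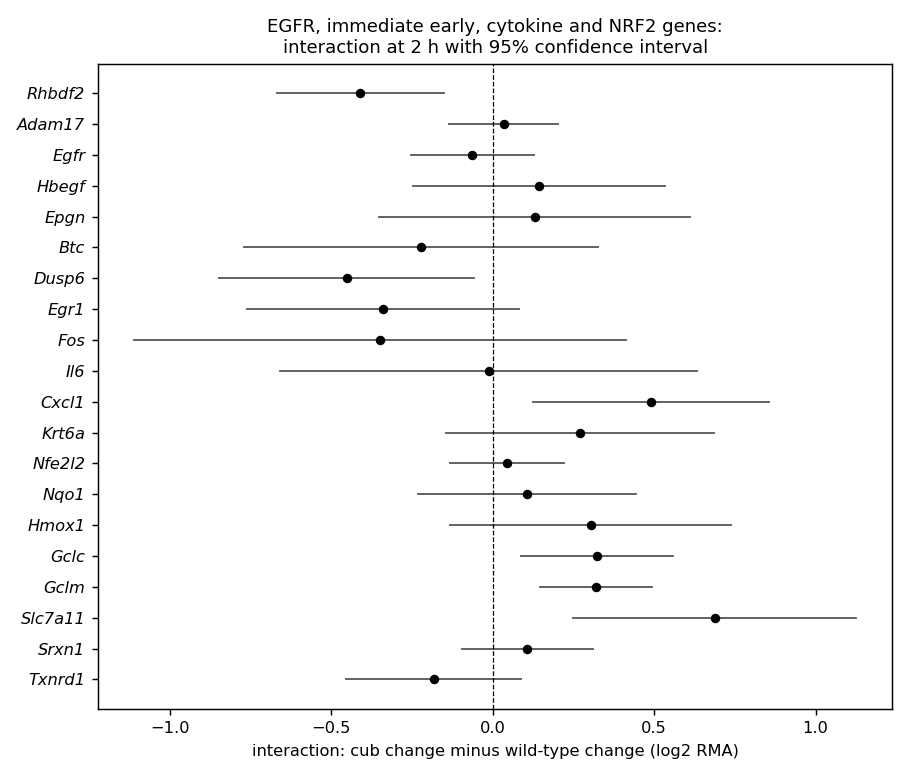
Interaction at 2 h (cub change minus wild-type change, log2 RMA units) for 20 genes reported whatever their values; points are estimates from 3 arrays per group and lines are 95% confidence intervals not adjusted for the number of genes. The interval lies above 0 for Slc7a11, Gclc, Gclm and Cxcl1 and below 0 for Rhbdf2 and Dusp6, but none of these 6 passed after adjustment.

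Il6, the cytokine with the largest rise in either genotype among the genes named here, rose by 4.51 in wild type and 4.50 in cub. It was at 4.13, 4.65 and 4.57 in wild type and at 4.43, 4.65 and 4.46 in cub at 0 h. After 2 h it was at 9.04, 9.03 and 8.81 in wild type and at 9.21, 8.68 and 9.14 in cub, and the genotypes overlapped at both times. The interaction of Il6 was -0.01 ± 0.31, with a 95% confidence interval from -0.66 to 0.63, which leaves room for a moderate difference. Cxcl1, a neutrophil attractant, was at 0.49 (interval from 0.12 to 0.86, adjusted p = 0.311). Il1b, also in the cytokine list, rose by 3.15 in wild type and 3.99 in cub. Its interaction was 0.84 (interval from 0.12 to 1.56, adjusted p = 0.393). Of 37 cytokines and chemokines 0 passed, and the median was 0.04. Above 0, 3 of the 37 had an unadjusted p under 0.05, against 6.56% of all genes, and 1 had it below 0.

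Leukocyte lists held no gene past the threshold. Of 21 neutrophil markers, 16 were above 0, with a median of 0.28, and 10 had an unadjusted p under 0.05 in this direction, against 6.56% of all genes. Clec4d, a lectin receptor of myeloid cells, was at 0.93 ± 0.20 (adjusted p = 0.0834) and Mmp8, neutrophil collagenase, at 1.01 ± 0.26 (adjusted p = 0.145). The mean level of the neutrophil list was 5.74 to 5.85 over the 6 arrays at 0 h, 6.47, 6.35 and 6.16 in wild type at 2 h and 6.73, 6.64 and 6.79 in cub at 2 h. Of 19 macrophage markers, 19 were above 0, with a median of 0.23, of which 2 had an unadjusted p under 0.05, beside the same 6.56%. The macrophage median was 0.09 without wild-type 2 h replicate 3 and 0.38 without cub 0 h replicate 2. Of 15 mast cell markers, 12 were above 0, with a median of 0.18, which was 0.13 without wild-type 2 h replicate 3. An unadjusted p under 0.05 was found for 4 of them above 0, against 6.56% of all genes, and for 1 below 0. The T cell median was -0.01 over 14 genes.

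Interferon-stimulated genes went the other way without a gene past the threshold. Of 23 tested, 21 were below 0, with a median of -0.31. An unadjusted p under 0.05 was found for 10 of the 23 in this direction, against 3.62% of all genes. Ifit1, an RNA-binding effector, was at -1.13 ± 0.44 (adjusted p = 0.355), with 6.41, 5.90 and 7.49 in wild type at 2 h and 5.74, 6.13 and 5.77 in cub at 2 h. The list mean of 7.19 in wild-type 2 h replicate 3 stood above the other 11 arrays, which lay at 6.48 to 6.84. Without that array the median was -0.18.

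**Figure D5:**
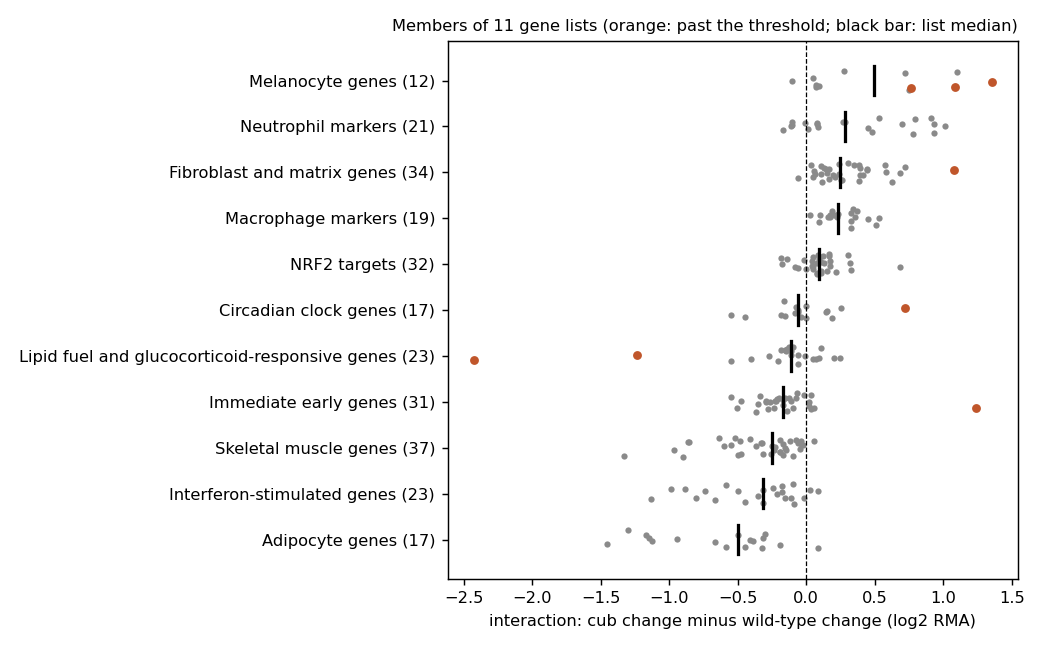
Interaction (cub change minus wild-type change, log2 RMA units) of each tested member of 11 gene lists, with the number of members in parentheses; grey points did not pass, orange points did, and the black bar is the list median. The medians run from -0.50 for adipocyte genes to 0.50 for melanocyte genes, beside 0.01 over all genes.

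Of 28 wound-edge keratinocyte genes 0 passed, 19 were above 0 and the median was 0.16. An unadjusted p under 0.05 was found for 9 of the 28 in this direction, against 6.56% of all genes. The wound-edge median was 0.08 without wild-type 0 h replicate 2 and 0.24 without wild-type 0 h replicate 1. Sprr1b, a member, had the highest interaction of all genes tested and did not pass, at 1.52 ± 0.73 (adjusted p = 0.488). It was at 8.21, 9.67 and 10.80 in wild type at 0 h and at 7.57, 8.64 and 7.87 in cub at 0 h. Of 12 basal keratinocyte genes Igfbp2 was the 1 that passed, against 0.13% of all genes. Of these 12, 3 were above 0 and the median was -0.09. Krt6a, a keratin of activated epidermis, was at 0.27 with an interval from -0.14 to 0.68 (adjusted p = 0.697). Of 35 epidermal differentiation genes 0 passed, with a median of -0.07. An unadjusted p under 0.05 was found for 6 of them below 0, against 3.62% of all genes, and for 2 above 0. In all, 6 of the 33 lists had a member past the threshold, and these lists held 9 of the 26 genes. In the other 27 lists, whose medians ran from -0.50 to 0.28, 0 members passed. The median standard error of the interaction was 0.11 over all genes against 0.08 for the genotype difference at 0 h, since 4 group means enter the first and 2 the second.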

How the data were processed

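The authors deposited log2 values. Per the submitters' processing notes they were made by RMA, with Affymetrix Expression Console 1.1. Not given in the sources used here are the summarisation level, annotation release and genome build. For statistics the design text names R/maanova with q-values; that test was not run here. The table held 35556 rows of 23 arrays, with values from 2.92 to 13.84. Of these rows 21789 had 1 gene symbol, 1621 had several and 12146 had none; only the first were used. Symbols were updated by gene ID through the RefSeq table of GRCm38.p6 (21698 rows matched). Where a gene had several rows (999 genes), the row of highest mean stood for it, leaving 19938 genes.

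All 23 arrays entered a limma fit (version 3.58.1, R 4.3.3) of 1 mean for each of 8 groups (15 residual and 5.61 prior degrees of freedom), so that the 4 groups of the interaction share an estimate of the spread with the others. Tests were two-sided, with Benjamini-Hochberg adjustment over 19938 genes in each of 7 comparisons. The labels call every array a separate biological replicate and give no batch. The code was tested on simulated data.

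Named genes were up to 15 per direction past the threshold, filled to 10 per direction by unadjusted p, list members by size, and a set given whatever its values; of these Areg was not analysed here. The 33 lists held 779 genes, of which 722 were tested (6 of them matched by synonym) and the other 57 not analysed here. The comparison, members and lists were chosen with earlier results of these data known. Lists are described by counts and medians. There were 21 alternatives: 9 of scaling, filter, rows, samples, block or moderation, and the 12 arrays left out in turn.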

Additional observations from a re-analysis of the deposited data

Results flagged for a closer look

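All 26 genes past the threshold had a wounding change at 2 h that differed between the genotypes by limma's interaction test (adjusted p under 0.05, Benjamini-Hochberg). The values are the cub change minus the wild-type change in log2 units. Among higher values, pigment genes were Tyrp1 at 1.35, Dct at 1.08 and Tyr at 0.77. Secreted proteins were Cthrc1 at 1.08, C1qtnf3 at 0.86, C1qtnf6 at 0.77 and Igfbp2 at 0.56. Non-coding genes were Mir377 at 0.84, Mir100hg at 0.71 and Snord96a at 0.58. Arc was at 1.24, Galnt6 at 0.76, Cry1 at 0.72, B230307C23Rik at 0.64, Cldn10 at 0.63 and Gm11559 at 0.61. Ctps was at 0.58, Rab31 at 0.53, Krtap15 at 0.52, Ccdc84 at 0.44 and Mtch2 at 0.33. Lower values were Pdk4 at -2.43, Ucp3 at -1.23, Mill1 at -1.11, H2-Q5 at -0.73 and Shisa7 at -0.50. Groups of 3 arrays are too small for a test of outlying samples.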

How the results depend on the processing

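The count of 26 genes with an interaction was 18 (12 higher, 6 lower) with median-centred arrays and 37 (21 higher, 16 lower) with quantile normalisation. It was 10 with the 12 arrays at 0 h and 2 h only, of which 7 were among the 26. It was 1 without moderation and 173 (109 higher, 64 lower) with array weights, and ran from 1 to 45 without 1 array. With the replicate number as a block it was 4, of which 4 were among the 26. Deviations of same-numbered arrays from their group means had r from -0.348 to 0.258 over 18 pairs. The 4 above 0.1 joined wild type and cub of the same time. They were 0.176 and 0.211 for replicates 2 and 3 at 0 h, and 0.181 and 0.258 for replicates 1 and 2 at 2 h. Replicate 1 at 0 h was at 0.067 and replicate 3 at 2 h at -0.021. The labels name no pairing, so the main fit has no block. Whether same-numbered arrays of a time share a source of variation was not tested. With array weights, the count at 2 h against 0 h was 2712 in wild type and 4112 in cub, and the count of cub against wild type was 1804 at 0 h and 1590 at 2 h. Without 1 array, the wild-type count ran from 983 (wild-type 0 h replicate 2 left out) to 1629. Cub against wild type at 0 h ran from 322 (without cub 0 h replicate 2) to 1079, and was 392 and 576 without wild-type 0 h replicates 2 and 3. Cub against wild type at 2 h ran from 329 (without cub 2 h replicate 1) to 973, and was 514 and 402 without wild-type 2 h replicates 2 and 3. The cause of these shifts was not tested. Of the 542 values of the 26 genes over the alternatives, 230 were past the threshold. Of 1406 values of 67 named genes that did not pass, 25 did. Among 372 differences at 15 min and 24 h under the scalings, 8 gained and 3 lost a call. Of 693 list medians, 52 moved. The 3 arrays per group limit every call.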
